A study of Mus musculus with 12 samples.

Results

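Interferon-stimulated genes are the genes that cells switch on when interferon reaches them, and 39 of them were followed here by name in colon mucosa. The genes were chosen by symbol, and the list holds nucleic acid sensors, transcription factors, antiviral effectors, interferon-inducible GTPases and parts of the immunoproteasome. Of the 39 genes, 35 had a probe that could be named on the array, and all 35 entered the tests among 23614 genes. Mx1, Mx2, Xaf1 and Dtx3l had no named probe and were not analysed here. On all 12 arrays, the probe used for each of the 35 genes was well above background.

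RNA came from mucosa scraped from the colon of 12 mice, 1 colon per array. Every recipient was a wild-type C57BL/6 mouse that carried transplanted bone marrow, so the 4 groups of 3 mice were treated recipients of Muc1 knockout (KO) marrow, treated recipients of wild-type (WT) marrow, untreated recipients of KO marrow and untreated recipients of WT marrow, all on the C57BL/6 background. Muc1 encodes a transmembrane mucin of epithelia and of some blood cells, and in these chimeras only cells derived from the marrow could lack it, while the epithelium of the recipient kept the gene. Treatment was 1 injection of the carcinogen azoxymethane (AOM) at 12.5 mg/kg, and the drinking water held dextran sodium sulfate (DSS), a salt that injures the colon lining, beginning 5 days after the injection. DSS was given at 2% for 4 days and followed by 14 days of water, the cycle was repeated, and DSS at 2.5% for 5 days came last. The colon was taken 1 day after that, so the treated tissue was sampled just after an acute bout of injury. The mice are separate animals, and their ages and sexes are not given in the sources used here.

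Type I interferons signal through the receptor chains Ifnar1 and Ifnar2 and the kinases Jak1 and Tyk2 to a complex that holds Stat2 and Irf9 and binds the interferon-stimulated response element (ISRE). Interferon-gamma (Ifng), made mostly by T and NK cells, has a receptor of its own and acts on genes with the gamma-activated site (GAS). In the colon both kinds of interferon act on epithelium as well as on leukocytes, and Socs1 and Usp18 are brakes on the pathway.

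The 2 response elements give a picture of the DNA in front of these genes. The ISRE was searched as GAAANNGAAA and the GAS as TTCNNNGAA, on both strands and with overlapping matches kept, in the RefSeq promoter windows of assembly GRCm38.p6, each 300 bases long, 250 before and 50 after the start of the gene. Windows were held for 30 of the 39 genes, and 15 of the 30 (50%) had an ISRE in at least 1 window, against 3.99% of 27025 genes. The GAS was present in 9 of the 30 (30%), against 9.55% of all genes. The list was assembled from genes known to answer interferon, so these shares describe the list and are not a result of the experiment. Below are 150 bases of 6 promoters, from 160 to 11 bases before the start of the gene, written 5′ to 3′ along the gene, with the ISRE matches in capitals. The genes Bst2, Gbp3, Igtp and Ifit3 are shown because they were past the threshold in the treatment comparison, and Ifit1 and Isg15 because they hold matches too and were not.
Bst2, chr8:71537483-71537632, minus strand: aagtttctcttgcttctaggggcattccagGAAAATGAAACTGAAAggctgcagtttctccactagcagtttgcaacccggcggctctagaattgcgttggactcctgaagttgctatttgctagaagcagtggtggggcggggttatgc
Gbp3, chr3:142559884-142560033, plus strand: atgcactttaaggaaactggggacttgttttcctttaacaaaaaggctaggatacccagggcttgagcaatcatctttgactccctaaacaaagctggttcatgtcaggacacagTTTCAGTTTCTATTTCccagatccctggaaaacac
Igtp, chr11:58199396-58199545, plus strand: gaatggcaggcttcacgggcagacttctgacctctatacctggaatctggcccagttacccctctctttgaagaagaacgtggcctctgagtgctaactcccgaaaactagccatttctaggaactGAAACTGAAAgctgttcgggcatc
Ifit3, chr19:34583369-34583518, plus strand: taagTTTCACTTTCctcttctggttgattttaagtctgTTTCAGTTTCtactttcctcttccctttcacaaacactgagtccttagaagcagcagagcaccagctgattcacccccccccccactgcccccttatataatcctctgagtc
Ifit1, chr19:34640729-34640878, plus strand: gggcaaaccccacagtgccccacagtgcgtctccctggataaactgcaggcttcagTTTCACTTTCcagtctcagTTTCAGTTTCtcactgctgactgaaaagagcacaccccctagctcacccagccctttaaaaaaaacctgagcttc
Isg15, chr4:156200829-156200978, minus strand: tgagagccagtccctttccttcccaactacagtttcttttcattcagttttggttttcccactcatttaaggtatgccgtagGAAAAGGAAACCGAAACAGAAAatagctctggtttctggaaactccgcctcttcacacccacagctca

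In these stretches Isg15 had 3 overlapping matches, while Bst2 and Gbp3 had 2 overlapping ones each. Ifit3 and Ifit1 each had a pair of separate matches, and Igtp had 1. Of the 11 genes past the threshold in the treatment comparison 6 had a promoter window, and 4 of these 6 held an ISRE. Of the 24 other genes with a window, 11 held an ISRE. Those 24 include Xaf1 and Dtx3l, which held no match and, without a named probe, were not tested. A match is a run of letters and was not tested as a site.

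Levels below are log2 processed signals relative to the 75th percentile of the same array, so that 0 is the brightness of a spot at that percentile, and differences are log2 differences ± SE from limma fitted across all 23614 genes. P values are Benjamini-Hochberg adjusted over all genes of a comparison, with a threshold of 0.05, and a level may be compared between mice but not between genes. The arrays lay on 3 slides: slide 1 held the 3 untreated WT-marrow mice and untreated KO-marrow mouse 1, slide 3 held treated mice 1 and 2 of both marrows, and slide 2 held the remaining 4, so that only slide 2 carried both treated and untreated mice. Slide 3 was scanned on the earlier of 2 days. The array of treated WT-marrow mouse 3 was dim, with a 75th percentile signal of 153 against 332 to 768 on the other 11 arrays. Muc1 itself was 0.49 higher with KO than with WT marrow in treated mice (adjusted p = 1) and -1.11 in untreated mice (limma adjusted p = 0.424), which is little of a check of the labels in a tissue whose epithelium was wild type throughout. All 9 tested markers of colon epithelium, Epcam, Cdh17 and Vil1 among them, were well above background on all 12 arrays.

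The first question was how the interferon-stimulated genes stood in treated against untreated mucosa. Over both marrows together, 11 of 35 genes rose and none fell: Zbp1, Oas2, Ifit2, Usp18, Psmb9, Parp9, Bst2, Parp14, Gbp3, Igtp and Ifit3. The increases ran from 1.57-fold for Parp14 to 7.57-fold for Ifit2. Over the whole array, 7.52% of genes passed the threshold as higher and 13.4% as lower. The difference was positive for 30 of the 35 genes, and their median difference was 0.59, beside a median of -0.19 over all genes. In only 3 genes, Oas2, Usp18 and Parp9, did all 6 treated mice exceed all 6 untreated mice, and 4.25% of all genes did so. In whole mucosa, a change in RNA per cell and a change in the number of cells that carry it cannot be told apart.

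Because treatment lay largely between slides, each treatment result was also fitted with slide as a block. In recipients of KO marrow that fit rests mainly on the mice of slide 2. The untreated WT-marrow mice, all on slide 1, enter it only through untreated KO-marrow mouse 1, the other mouse on that slide. With WT marrow and over both marrows, the result with the block therefore also hangs on that 1 array. With the block none of the 35 genes passed the threshold in limma over both marrows. Of all genes 4.1% passed as higher and 2.1% as lower. An unadjusted p below 0.05 was found for 9 genes, 6 higher and 3 lower (Irf7, Isg20 and Oasl1). How many of all genes had such a p with the block was not counted, so these 9 do not set the list apart. Adjusted p values of the 11 genes ran from 0.0658 for Zbp1 to 0.536 for Parp9. All 11 differences stayed positive, from 0.32 for Parp9 to 3.37 for Ifit2. The median over all genes moved as well, to 0.457, so that the median of the 35 genes, 0.55 with the block, lay only 0.09 above it, against 0.78 above it without the block. Of the 11 genes, 10 stayed above that median and Parp9 did not. Among genes not past the threshold, the block turned Gbp2 to -0.38, Tap1 to -1.09, Oas3 to -0.76, Isg20 to -1.16, Oas1a to -0.48, Ifi35 to -0.07, Irgm1 to -0.01 and Rsad2 to 0.59, each the opposite sign of the value without it. Treatment and slide therefore cannot be told apart for most of what follows.

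**Figure D1:**
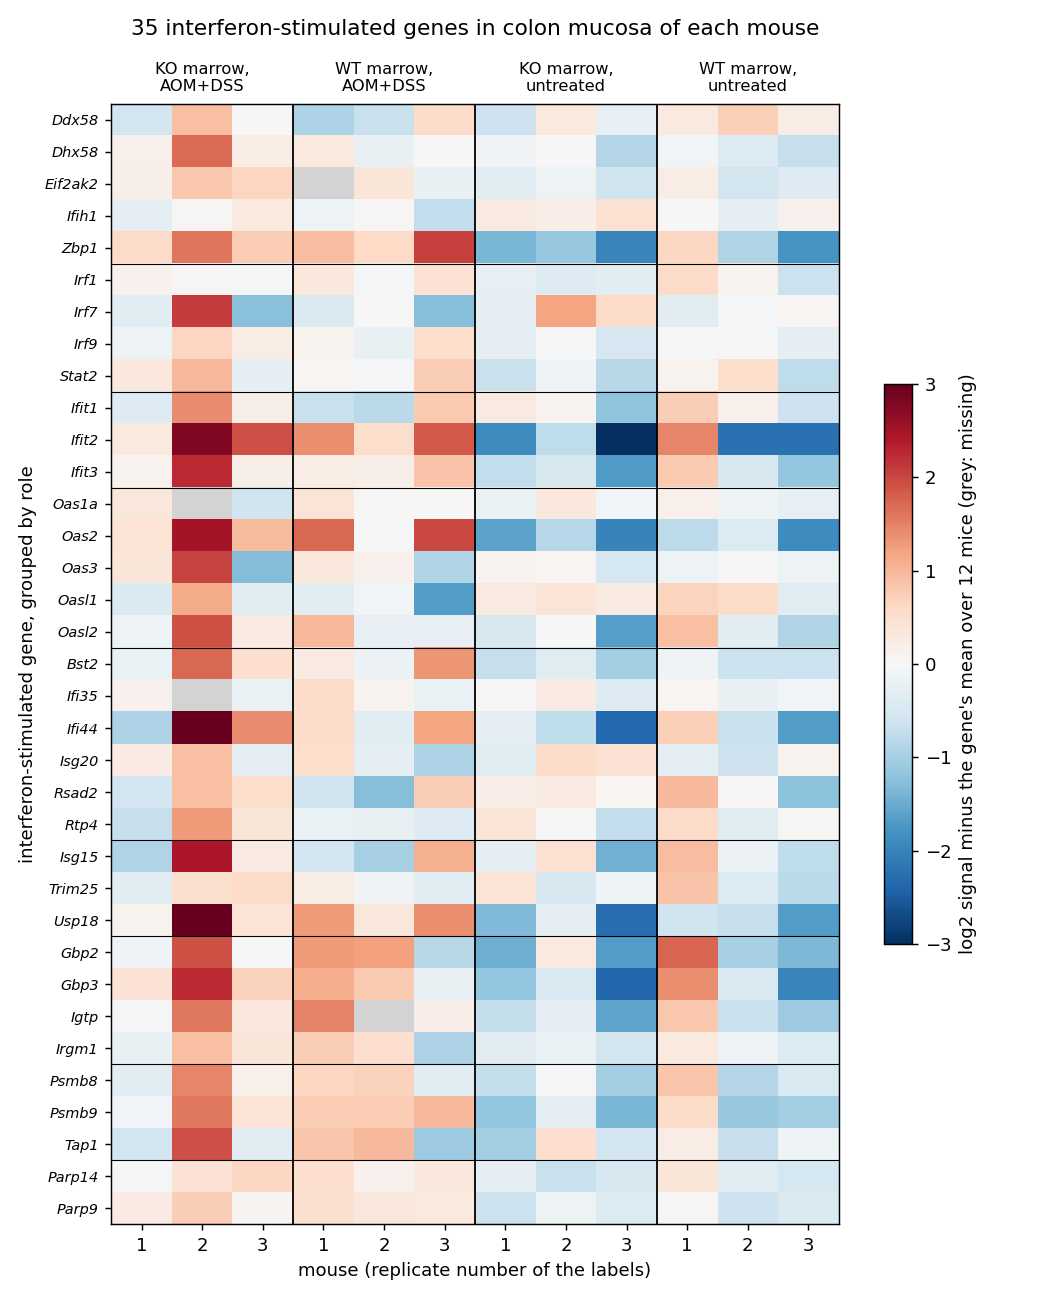
Log2 signal of 35 interferon-stimulated genes (rows, grouped by role) in each of 12 mice (columns, replicate numbers of the labels), with the mean of each gene over the 12 mice subtracted; colours stop at 3 on either side and grey marks the 4 missing values. Treated KO-marrow mouse 2 is red in nearly every row, and Zbp1, Oas2, Ifit2 and Usp18 show the clearest step between treated and untreated mice.

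Among the sensors of foreign nucleic acid, Zbp1, which binds Z-form nucleic acid and can start cell death, rose. Zbp1 was at 3.80, 4.84 and 4.00 in treated KO-marrow mice and 4.17, 3.82 and 5.29 in treated WT-marrow mice, against 1.86, 2.10 and 1.26 in untreated KO-marrow mice and 3.86, 2.33 and 1.47 in untreated WT-marrow mice. Untreated WT-marrow mouse 1 was the only untreated mouse that reached the treated range. The difference was 2.17 ± 0.38 (4.51-fold, limma adjusted p = 0.00293). The other 4 sensors did not pass: Ddx58 (RIG-I) and Ifih1 (MDA5), which detect viral RNA, were at -0.22 and -0.26, their regulator Dhx58 (LGP2) was at 0.72 and the kinase Eif2ak2 (PKR), which stops translation, at 0.60. A second, dimmer probe of Ifih1 read -0.83.

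None of the 4 transcription factors passed. Differences were 0.59 for Stat2, 0.36 for Irf9 and 0.29 for Irf1, a factor that interferon-gamma induces, and -0.39 for Irf7, which drives the type I interferon genes. Irf7 moved to -2.22 with slide as a block (adjusted p = 0.0782).

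In the Ifit family, whose proteins bind foreign RNA and block its translation, Ifit2 and Ifit3 rose. Ifit2 was at -0.68, 1.80 and 0.96 in treated KO-marrow mice and 0.43, -0.44 and 0.87 in treated WT-marrow mice, against -2.87, -1.74 and -4.07 in untreated KO-marrow mice and 0.49, -3.2 and -3.21 in untreated WT-marrow mice. Apart from untreated WT-marrow mouse 1, every untreated mouse lay below every treated one. The difference was 2.92 ± 0.66 (7.57-fold, limma adjusted p = 0.0109), and a second probe of Ifit2 gave 2.79. Ifit3 was at 0.86, 3.00 and 0.94 in treated KO-marrow mice and 0.97, 0.93 and 1.61 in treated WT-marrow mice, against 0.03, 0.28 and -0.95 in untreated KO-marrow mice and 1.55, 0.27 and -0.40 in untreated WT-marrow mice. Again it was untreated WT-marrow mouse 1 that overlapped the treated mice. Ifit3 rose by 1.26 ± 0.42 (limma adjusted p = 0.0493), close to the threshold. Ifit1, which also has ISRE matches in its window, was at 0.18 ± 0.40 (adjusted p = 0.762).

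Of the 5 genes of the oligoadenylate synthetase family, whose active enzymes answer double-stranded RNA by activating RNase L, Oas2 rose. Oas2 was at -0.88, 1.22 and -0.34 in treated KO-marrow mice and 0.45, -1.27 and 0.71 in treated WT-marrow mice, against -2.88, -2.13 and -3.29 in untreated KO-marrow mice and -2.07, -1.70 and -3.17 in untreated WT-marrow mice. Here the treated and untreated mice did not overlap. The difference was 2.52 ± 0.45 (5.74-fold, limma adjusted p = 0.00316). A second probe of Oas2, well above background on 2 arrays, read -0.19. Oasl2 was at 0.83, Oas3 at 0.22, Oas1a at 0.03 and Oasl1 at -0.60, none past the threshold. A second probe of Oas3, nearly as bright, read 0.67. These genes are close relatives, and how far their probes take signal from each other was not tested.

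Among the other antiviral effectors, Bst2 (tetherin), which holds budding virus at the cell surface, rose. Bst2 was at 2.05, 3.98 and 2.76 in treated KO-marrow mice and 2.53, 2.09 and 3.59 in treated WT-marrow mice, against 1.56, 1.90 and 1.23 in untreated KO-marrow mice and 2.16, 1.62 and 1.61 in untreated WT-marrow mice. The ranges touched only at the lowest treated mice and untreated WT-marrow mouse 1, and the difference was 1.15 ± 0.33 (limma adjusted p = 0.0279). Ifi44 was at 1.67 ± 0.64 (adjusted p = 0.0754). Differences of Ifi35, Isg20, the chaperone Rtp4 and the antiviral enzyme Rsad2 (viperin) lay between -0.10 and 0.12 and did not pass. Dimmer probes read -0.60 for Isg20, and 0.27 and -0.32 for Rsad2.

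Isg15 is a ubiquitin-like protein that is joined to other proteins, Trim25 is a ubiquitin ligase that acts in RIG-I signalling, and Usp18 removes Isg15 and damps the interferon receptor. Usp18 rose, while Isg15 and Trim25 did not pass. Usp18 was at -0.53, 2.71 and -0.21 in treated KO-marrow mice and 0.65, -0.28 and 0.76 in treated WT-marrow mice, against -1.96, -0.92 and -2.91 in untreated KO-marrow mice and -1.23, -1.33 and -2.30 in untreated WT-marrow mice. All 6 treated mice were higher, by 2.29 ± 0.53 on average (4.89-fold, limma adjusted p = 0.0117). Isg15, with 3 overlapping matches in its promoter window, was at 0.50, 3.83 and 1.66 in treated KO-marrow mice and 0.83, 0.39 and 2.45 in treated WT-marrow mice, against 1.11, 1.85 and -0.05 in untreated KO-marrow mice and 2.32, 1.21 and 0.63 in untreated WT-marrow mice. Its groups overlapped widely, and the difference of 0.43 ± 0.56 had an adjusted p of 0.594. The brightest probe of Trim25 read 0.18 and a second probe 1.15.

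The GTPases Gbp2, Gbp3, Igtp and Irgm1 are induced above all by interferon-gamma and act on membranes around intracellular microbes. Gbp3 and Igtp rose. Gbp3 was at 1.39, 3.19 and 1.64 in treated KO-marrow mice and 2.05, 1.73 and 0.73 in treated WT-marrow mice, against -0.21, 0.50 and -1.39 in untreated KO-marrow mice and 2.35, 0.49 and -1.02 in untreated WT-marrow mice. Untreated WT-marrow mouse 1 stood above 5 of the 6 treated mice, and the difference was 1.67 ± 0.54 (limma adjusted p = 0.0437). Igtp was at 2.98, 4.63 and 3.35 in treated KO-marrow mice and 4.53 and 3.24 in treated WT-marrow mice 1 and 3, the value of mouse 2 being missing, against 2.33, 2.77 and 1.46 in untreated KO-marrow mice and 3.86, 2.38 and 1.95 in untreated WT-marrow mice. It rose by 1.31 ± 0.43 (limma adjusted p = 0.0487), and only untreated WT-marrow mouse 1 lay within the treated range. Gbp2 was at 1.15 ± 0.61 and Irgm1 at 0.45 ± 0.29, neither past the threshold.

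Psmb8 and Psmb9 are catalytic subunits that turn the proteasome into the immunoproteasome, and Tap1 carries its peptides into the endoplasmic reticulum for class I presentation. Psmb9 rose. Psmb9 was at 3.17, 4.85 and 3.66 in treated KO-marrow mice and 4.03, 4.02 and 4.23 in treated WT-marrow mice, against 2.09, 2.98 and 1.89 in untreated KO-marrow mice and 3.82, 2.13 and 2.22 in untreated WT-marrow mice. Without untreated WT-marrow mouse 1 the ranges would not meet. The difference was 1.47 ± 0.34 (2.77-fold, limma adjusted p = 0.0125). Psmb8 was at 0.76 ± 0.36 and Tap1 at 0.58 ± 0.49, neither past the threshold. A second probe of Psmb8, nearly as bright, read 1.04.

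The ADP-ribosyltransferase family members Parp9 and Parp14 both rose, with the smallest differences of the 11 genes. Parp9 was at 1.79, 2.27 and 1.63 in treated KO-marrow mice and 2.03, 1.89 and 1.84 in treated WT-marrow mice, against 0.90, 1.39 and 1.13 in untreated KO-marrow mice and 1.58, 0.92 and 1.11 in untreated WT-marrow mice. There was no overlap, and the difference was 0.74 ± 0.18 (limma adjusted p = 0.0161). Parp14 was at 3.85, 4.34 and 4.51 in treated KO-marrow mice and 4.40, 4.02 and 4.21 in treated WT-marrow mice, against 3.62, 3.24 and 3.42 in untreated KO-marrow mice and 4.25, 3.55 and 3.37 in untreated WT-marrow mice. Parp14 rose by 0.65 ± 0.19 (limma adjusted p = 0.0312), although 2 dimmer probes of the gene read 1.32 and -0.26.

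**Figure D2:**
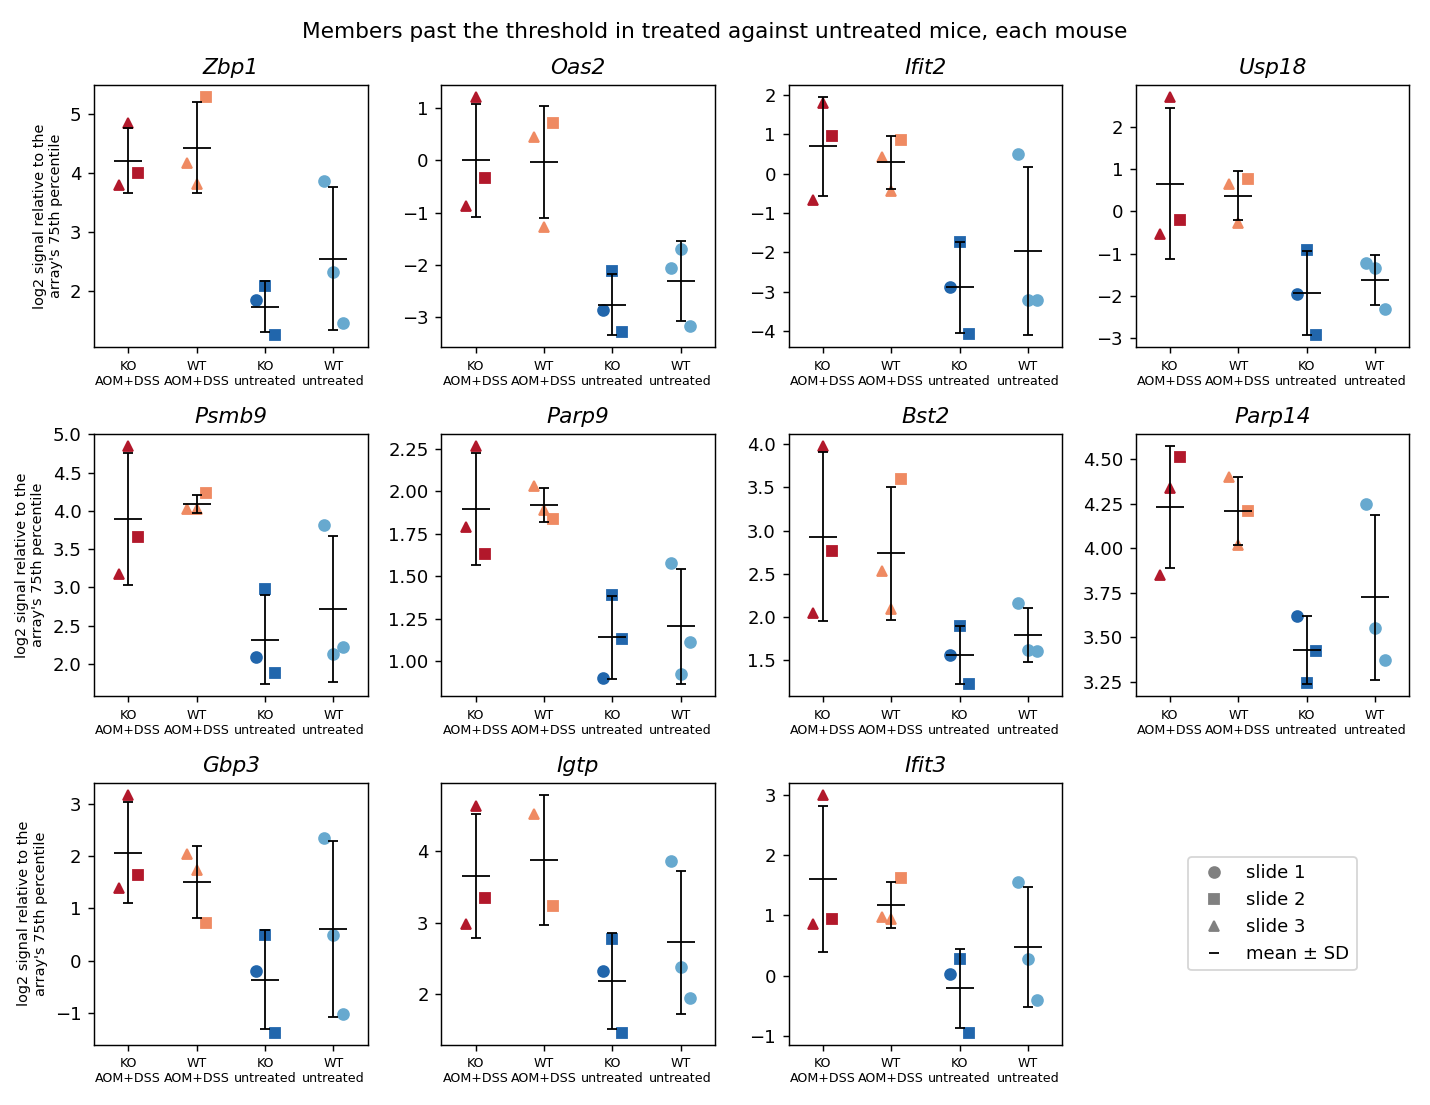
Log2 signal relative to the 75th percentile of the array (vertical axes) of the 11 genes past the threshold in treated against untreated mice, in 4 groups of 3 mice. Points are mice, their shapes are slides, and black lines are the mean ± SD; untreated WT-marrow mouse 1 is the untreated point that most often lies in the treated range, and Oas2, Usp18 and Parp9 do not overlap.

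Leaving out mice in turn changed how many genes passed. Zbp1, Oas2, Ifit2, Usp18, Psmb9 and Parp9 stayed past the threshold in each of the 12 fits that left out 1 mouse. The count was 6 without untreated WT-marrow mouse 2, without untreated WT-marrow mouse 3, without untreated KO-marrow mouse 3 or without treated KO-marrow mouse 2, and 7 without untreated KO-marrow mouse 1 or without treated WT-marrow mouse 1. It lay between 8 and 12 in the other 6 fits.

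**Figure D3:**
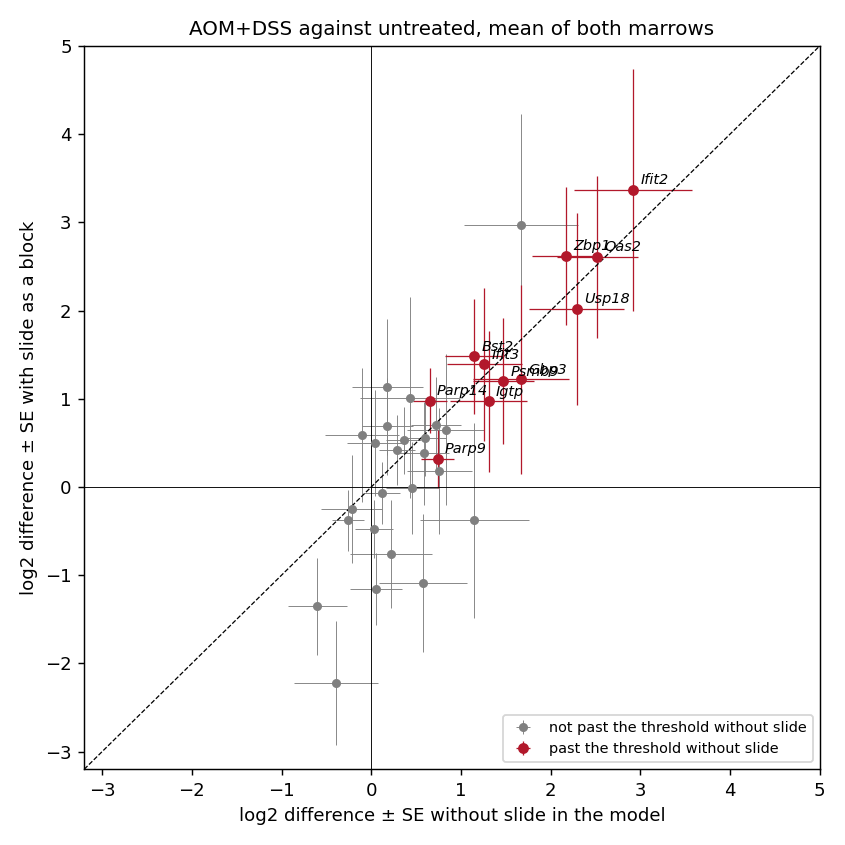
Log2 difference ± SE between treated and untreated mice, mean of both marrows, for 35 genes without slide in the model (horizontal) and with slide as a block (vertical); the dashed line marks equal values. The 11 genes past the threshold without slide, in red, stay above 0 with the block, with wider errors.

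Each marrow was then taken on its own. In recipients of KO marrow 2 of 35 genes rose, Zbp1 by 2.47 ± 0.54 (limma adjusted p = 0.0253) and Oas2 by 2.77 ± 0.64 (limma adjusted p = 0.0327), and none fell, where 1.85% of all genes passed as higher and 1.3% as lower. The next 4 by the size of the test statistic, which did not pass, were Ifit2 at 3.58, Usp18 at 2.59, Psmb9 at 1.57 and Gbp3 at 2.44. The difference was positive for 31 of 35 genes, with a median of 0.81 beside -0.11 over all genes. In 14 genes every treated mouse exceeded every untreated one, as did 11.1% of all genes. With slide as a block 1 gene passed, Zbp1, at 2.86 ± 0.73 (limma adjusted p = 0.0394), where 4.66% of all genes passed as higher and 2.63% as lower, while the median of the 35 genes was 0.74 beside 0.444 over all genes. Without untreated KO-marrow mouse 1, 2 or 3, or without treated KO-marrow mouse 2 or 3, the count was 0 in each fit, without treated KO-marrow mouse 1 it was 1, and without untreated WT-marrow mouse 1 or treated WT-marrow mouse 3 it was 3. Within slide 2, which held 1 treated and 2 untreated KO-marrow mice, 12 genes passed, 9 higher and Irf7, Isg20 and Oas3 lower, where 26.5% of all genes passed. That fit has 1 residual degree of freedom and takes the lone treated mouse to vary like the untreated pair, so it is a comparison with a single treated mouse.

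In recipients of WT marrow 2 genes rose as well, Oas2 by 2.27 ± 0.64 (limma adjusted p = 0.0367) and Zbp1 by 1.87 ± 0.54 (limma adjusted p = 0.0399). None fell, where 3.57% of all genes passed as higher and 10.1% as lower. Below the threshold stood Psmb9 at 1.37, Parp9 at 0.72, Usp18 at 2.00 and Ifit2 at 2.26. The difference was positive for 26 of 35 genes, with a median of 0.30 beside -0.24 over all genes. In 4 genes all treated mice exceeded all untreated ones, and 11% of all genes did so. With slide as a block the count in limma was 0, where 0.47% of all genes passed as higher and 0.072% as lower. An unadjusted p below 0.05 was found for 4 genes, 1 higher and 3 lower. How many of all genes had such a p in that fit was not counted, so these 4 do not set the list apart. The median of the 35 genes was then 0.39 beside 0.47 over all genes, and with normexp background correction it was 0.17 beside 0.397, so that in neither did the list lie above all genes. The count was also 0 without untreated WT-marrow mouse 2, without untreated WT-marrow mouse 3 or without treated WT-marrow mouse 1, and 1 without treated WT-marrow mouse 2 or 3, without untreated KO-marrow mouse 2 or without treated KO-marrow mouse 1 or 3. Without untreated WT-marrow mouse 1 or treated KO-marrow mouse 2 it was 3.

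**Figure D4:**
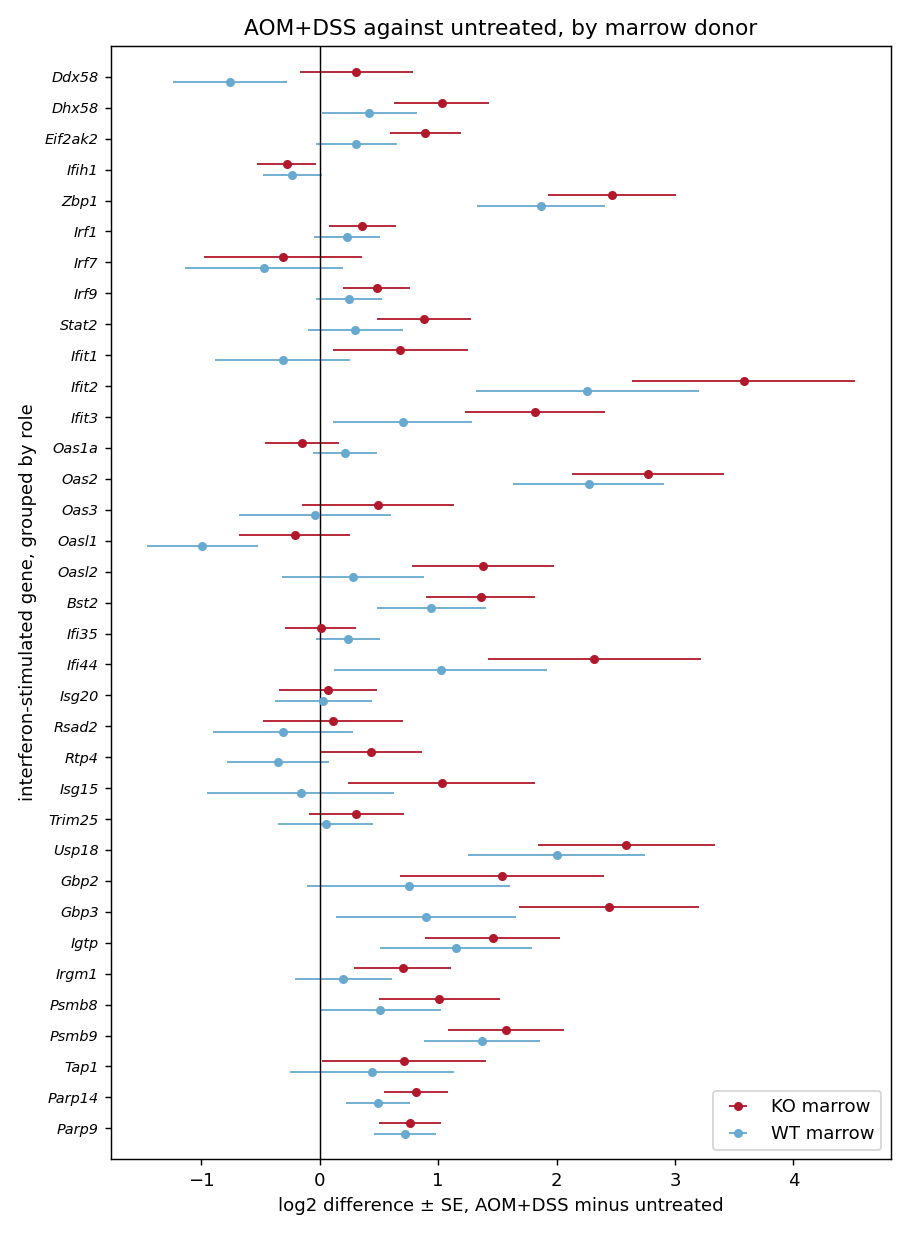
Log2 difference ± SE between treated and untreated mice for 35 interferon-stimulated genes (rows, grouped by role), in recipients of KO marrow (red, upper point) and of WT marrow (blue, lower point). The KO-marrow difference is the more positive one in 32 of 35 genes, and no gene passed the test of the gap between the pair.

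The interaction asks whether the treatment difference itself depended on the marrow. No gene passed it (0% of all genes), and the lowest limma adjusted p among the 35 genes was 0.902. No member had an unadjusted p below 0.05 in limma, whereas 799 of all 23614 genes did. The interaction was positive in 32 of 35 genes, with a median of 0.51 beside 0.176 over all genes. The 6 with the largest test statistic were Ddx58 at 1.07 ± 0.67, Gbp3 at 1.55 ± 1.07, Ifit3 at 1.12 ± 0.84, Rtp4 at 0.79 ± 0.61, Oasl2 at 1.10 ± 0.85 and Eif2ak2 at 0.58 ± 0.46. Without treated KO-marrow mouse 2 the interaction was positive in 21 genes with a median of 0.13, and without untreated WT-marrow mouse 1 in 24 genes with a median of 0.24.

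Treated recipients of KO and of WT marrow were compared directly. Of the 35 genes 0 passed in limma, and 0% of all genes passed. An unadjusted p below 0.05 was found for 0 of the 35 and for 189 of all 23614 genes. The difference was positive for 28 of 35 genes, with a median of 0.31 beside -0.015 over all genes, and in 0 genes did the KO-marrow mice all lie above the WT-marrow mice, as 1.72% of all genes did. Without treated KO-marrow mouse 2, however, 11 of 35 differences were positive and the median was -0.19. Within slide 3, which held 2 treated mice of each marrow, 0 genes passed in limma (0% of all genes) and 23 of 31 differences were positive. Slide 2 held 1 treated mouse of each marrow, and the spread there comes only from 2 untreated KO-marrow mice, so its values set 1 mouse against 1 and say nothing of the groups. Ifih1 at 1.03, Irgm1 at 1.28 and Oasl1 at 1.33 were past the threshold in that fit, as were 19.4% of all genes.

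The 6 genes with the largest test statistic in that comparison, all at an adjusted p of 1, were Oasl1, Dhx58, Eif2ak2, Rtp4, Ifih1 and Isg20. Oasl1 was at 1.42, 2.97 and 1.51 in treated KO-marrow mice and 1.51, 1.79 and 0.18 in treated WT-marrow mice, against 2.14, 2.24 and 2.13 in untreated KO-marrow mice and 2.54, 2.41 and 1.49 in untreated WT-marrow mice. The treated groups overlapped, and the difference of 0.81 ± 0.47 came with 1 high mouse in the first and 1 low mouse in the second. Dhx58 was at 1.01, 2.56 and 1.07 in treated KO-marrow mice and 1.14, 0.63 and 0.86 in treated WT-marrow mice, against 0.75, 0.85 and -0.03 in untreated KO-marrow mice and 0.77, 0.45 and 0.15 in untreated WT-marrow mice. Treated KO-marrow mouse 2 stood apart from all the others, and the difference was 0.67 ± 0.40. Eif2ak2 was at 0.46, 1.09 and 0.93 in treated KO-marrow mice and 0.65 and 0.07 in treated WT-marrow mice 2 and 3, the value of mouse 1 being missing, against -0.02, 0.14 and -0.31 in untreated KO-marrow mice and 0.51, -0.26 and -0.11 in untreated WT-marrow mice. Its difference between the treated groups was 0.47 ± 0.34, and their ranges overlapped.

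Rtp4, a chaperone of cell surface receptors, was at 2.83, 4.79 and 3.87 in treated KO-marrow mice and 3.33, 3.29 and 3.12 in treated WT-marrow mice, against 3.91, 3.5 and 2.78 in untreated KO-marrow mice and 4.09, 3.16 and 3.55 in untreated WT-marrow mice. The spread within the treated KO-marrow group covered all the treated WT-marrow values, with a difference of 0.58 ± 0.43. Ifih1 was at 2.49, 2.78 and 3.05 in treated KO-marrow mice and 2.59, 2.79 and 2.02 in treated WT-marrow mice, against 3.02, 2.94 and 3.21 in untreated KO-marrow mice and 2.74, 2.48 and 2.89 in untreated WT-marrow mice. Its difference between the treated groups was 0.31 ± 0.25. Isg20, an exonuclease, was at 1.42, 2.09 and 0.88 in treated KO-marrow mice and 1.72, 0.89 and 0.25 in treated WT-marrow mice, against 0.82, 1.74 and 1.62 in untreated KO-marrow mice and 0.90, 0.57 and 1.30 in untreated WT-marrow mice. The groups of Isg20 overlapped throughout, and the difference was 0.51 ± 0.41.

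Untreated recipients of KO marrow were set against untreated recipients of WT marrow in the same way. Again 0 of 35 genes passed in limma, and 0% of all genes passed. An unadjusted p below 0.05 was found for 0 of the 35 and for 2902 of all 23614 genes. The difference was positive for 9 genes, with a median of -0.30 beside -0.178 over all genes. Zbp1 at -0.81 ± 0.54, Ifih1 at 0.35 ± 0.25, Gbp3 at -0.97 ± 0.76, Ddx58 at -0.60 ± 0.48, Stat2 at -0.49 ± 0.40 and Ifit3 at -0.69 ± 0.59 had the largest test statistics, with adjusted p values of 0.508 or more. Only Ifih1 was higher in all KO-marrow mice than in all WT-marrow mice, as were 6.18% of all genes. Without untreated WT-marrow mouse 1 the median was 0.04 and 20 of 35 differences were positive.

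The mice of 1 group differed from each other in many of these genes at once. Treated KO-marrow mouse 2 was the highest of its group in 29 of the 33 genes measured in all 3 mice (87.9%), and in 25.1% of all genes. Untreated WT-marrow mouse 1 was the highest in 28 of 35 genes (80%), against 43.4% of all genes, and untreated KO-marrow mouse 2 in 27 of 35 (77.1%), against 18.5%. At the low end, treated KO-marrow mouse 1 was the lowest of its group in 27 of 33 genes (81.8%), against 33.3% of all genes. The median SD within a group was 0.87 for the 35 genes in treated KO-marrow mice, 0.65 in treated WT-marrow mice, 0.48 in untreated KO-marrow mice and 0.59 in untreated WT-marrow mice. Over all genes the median SD was 0.44 in treated KO-marrow mice, 0.69 in treated WT-marrow mice, 0.39 in untreated KO-marrow mice and 0.38 in untreated WT-marrow mice. The widest gene in treated KO-marrow mice was Ifi44, at -1.96, 2.06 and 0.38 (SD 2.02), and the narrowest there was Irf1 (SD 0.08). Ifit2 in untreated WT-marrow mice was wider still (SD 2.13).

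Markers of other cells moved with the treatment comparison. Of the markers of macrophages and monocytes 11 of 12 rose, led by Mpeg1, Cd14 and Itgam, and of those of neutrophils 9 of 10, led by S100a9 at 8.16 ± 0.45 (limma adjusted p = 9.87e-07). Fibroblast markers rose in 7 of 8 cases, T and NK cell markers in 1 of 12 (Il2rb), and epithelial markers in 0 of 9, with Slc26a3 and Car1 lower. Over the whole array 7.52% of genes passed as higher and 13.4% as lower. With slide as a block 5 macrophage and monocyte, 8 neutrophil, 1 fibroblast and 1 T and NK cell markers passed as higher. Of the epithelial markers 1 passed as lower with the block. The shares of all genes were then 4.1% higher and 2.1% lower. With each gene centred on its mean over the 12 mice, the median of the macrophage and monocyte markers lay at 1.01 to 1.34 in treated KO-marrow mice and 0.60 to 1.43 in treated WT-marrow mice, against -1.76 to -0.82 in untreated KO-marrow mice and -1.39 to 0.04 in untreated WT-marrow mice. The same median over the interferon-stimulated genes was -0.09, 1.58 and 0.25 in treated KO-marrow mice and 0.44, 0.02 and 0.19 in treated WT-marrow mice, against -0.31, -0.04 and -0.73 in untreated KO-marrow mice and 0.35, -0.40 and -0.64 in untreated WT-marrow mice. The medians of macrophage and neutrophil markers did not overlap between treated and untreated mice. Those of the interferon-stimulated genes did overlap, with untreated WT-marrow mouse 1 at 0.35 within the treated range. Smooth muscle markers stood at 3.97 in treated WT-marrow mouse 2, against -1.29 to 1.77 in the other 11 mice. What part these cells had in the changes of the interferon-stimulated genes was not tested.

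The following mice were picked after their values were seen. Treated KO-marrow mouse 2 had the lowest macrophage and monocyte median of its group, 1.01, and the highest T and NK cell median, 0.66, against -0.68 and -0.09 in mice 1 and 3. Untreated WT-marrow mouse 1 had the highest interferon-stimulated median of its group, a macrophage and monocyte median of -1.39, against 0.04 and -1.38 in mice 2 and 3, and a T and NK cell median of 0.96, against 0.62 and -0.15. The treated WT-marrow mice ran the other way: mouse 1, with the highest interferon-stimulated median of its group, had the lowest T and NK cell median, -0.18, against 0.54 and 0.37 in mice 2 and 3. Untreated KO-marrow mouse 2 also had the highest interferon-stimulated median of its group. Its T and NK cell median was -0.43, against -0.23 and -0.86 in mice 1 and 3. Ifng was at -3.49, -1.05 and -3.45 in treated KO-marrow mice 1 to 3 and at -0.15, -2.56 and -1.44 in treated WT-marrow mice 1 to 3, highest in mouse 2 of the first group and mouse 1 of the second. In untreated mice Ifng was at -5.27, -6.97 and -7.03 with KO marrow and -3.51, -6.28 and -4.90 with WT marrow. There it was highest in mouse 1 of both groups. In untreated mice 3 of 6 arrays were not well above background for Ifng. These values stand side by side, and a link between them was not tested.

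**Figure D5:**
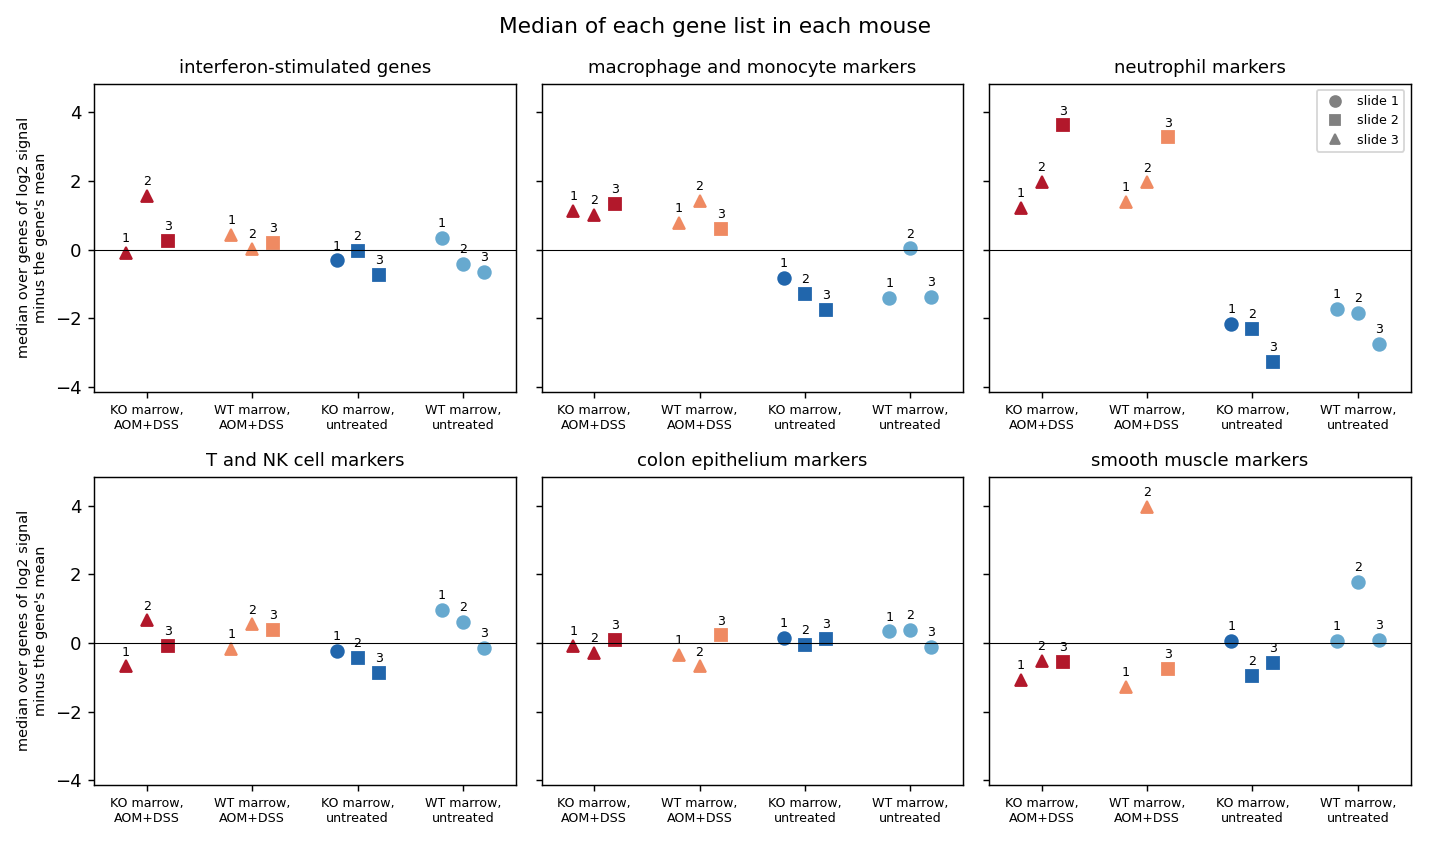
Median over the genes of a list of the log2 signal minus the gene's mean over 12 mice (vertical axes), for interferon-stimulated genes and 5 lists of cell markers, in each mouse; numbers are mice and shapes are slides. Macrophage and neutrophil markers separate treated from untreated mice, whereas the interferon-stimulated genes are set apart in treated KO-marrow mouse 2, at 1.58.

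The rest of the pathway was read from lists of genes that are not on the list of 39. Of 12 tested ligands and receptors, 2 rose and 2 fell in treated against untreated mice, where 7.52% of all genes passed as higher and 13.4% as lower. Ifng rose by 3.64 ± 0.63 (limma adjusted p = 0.00273) and the receptor chain Ifnar2 by 1.32 ± 0.21 (limma adjusted p = 0.00138), while Ifna1 fell by 2.20 and Ifna4 by 2.00 on the log2 scale. Ifng was well above background on 9 arrays, and the 3 others were all of untreated mice, where its level is only known to be low, so the size of its difference is not exact. Ifna4 was well above background on 6 arrays, 2 of treated and 4 of untreated mice, and the size of its difference is not exact either. With slide as a block Ifng was at 4.36 and Ifnar2 at 1.42, but Ifna1 and Ifna4 turned to 0.64 and 0.63. The interferon-alpha genes are near-identical copies, so their probes may share signal.

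Of 12 tested genes of signal transduction 4 rose, Socs3, Socs1 and Ptpn2 among them, and 1, Socs2, fell. Over all genes 7.52% passed as higher and 13.4% as lower. Socs3, which brakes cytokine receptors of the interleukin-6 type, was at 5.07, 5.21 and 5.03 in treated KO-marrow mice and 5.98, 5.03 and 5.23 in treated WT-marrow mice, against 1.05, 0.75 and 0.26 in untreated KO-marrow mice and 1.08, 1.48 and 0.32 in untreated WT-marrow mice. It rose by 4.43 ± 0.23 (limma adjusted p = 9.38e-07), with no overlap, and by 4.67 with slide as a block. Socs1, the brake on interferon-gamma signalling, rose by 2.48 ± 0.36 (2.69 with the block, adjusted p = 0.0497) and the phosphatase Ptpn2 by 0.66 ± 0.18, while Socs2 fell by 1.89. Of 12 upstream sensors and adaptors, Myd88 and Tlr3 rose by 0.86 and 0.83, and Ticam1, the adaptor of Tlr3, fell by 0.74.

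Of 46 further genes known to be induced by interferon, 17 rose and 0 fell, with a median difference of 0.54. Over all genes 7.52% passed as higher and 13.4% as lower, with a median of -0.19. The 5 with the largest test statistic were the chemokines Cxcl10 (3.08 ± 0.33) and Cxcl9 (3.66 ± 0.58), the DNA-binding proteins Ifi204 (2.89 ± 0.45) and Ifi205 (2.41 ± 0.43), and the nuclear body protein Sp110 (1.36 ± 0.28). Cxcl10 was at 1.22, 1.04 and 0.94 in treated KO-marrow mice and 1.97, 0.83 and 0.98 in treated WT-marrow mice, against -1.91, -1.37 and -1.96 in untreated KO-marrow mice and -1.30, -3.28 and -1.67 in untreated WT-marrow mice. With slide as a block 6 of the 46 passed as higher, Cxcl10, Ifi204, Ifi205 and Sp110 among them, where 4.1% of all genes did. The median of the 46 genes with the block was 0.54, beside 0.457 over all genes. Of 13 further genes of class I presentation 0 passed in limma, and Psme1 at 0.50 and Erap1 at 0.39 had the largest test statistics. An unadjusted p below 0.05 was found for 2 of the 13 and for 8987 of all 23614 genes.

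The authors' deposited table matches group means of log2 values minus the probe's median over the 12 arrays. It holds 2504 of the 41174 gene probes, named by the authors as differentially expressed, so it is a selection from these same data. Among them are probes of 5 of the 11 genes past the threshold. In the authors' deposited table Zbp1 stood at 0.40 in treated KO-marrow mice and 0.61 in treated WT-marrow mice, against -2.09 in untreated KO-marrow mice and -1.28 in untreated WT-marrow mice. Oas2 stood at 1.49 and 1.45 in treated KO-marrow and WT-marrow mice of the authors' deposited table, against -1.29 and -0.85 in untreated KO-marrow and WT-marrow mice. Trim25 is in the authors' deposited table through its second probe, the one that read 1.15 here. Parp14 is there through a dimmer probe that read 1.32 here, not through the probe that passed.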

How the data were processed

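RNA from the scraped mucosa of 12 colons was hybridised in 1 colour to 12 mouse Agilent arrays with 43379 gene spots each. Per the file headers, the authors deposited scanner output with the processed Cy3 intensity of each spot, already background-subtracted by the scanner software. The authors also deposited a table of log2 group values, one row per probe, used here only for the values credited to it.

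Each array was taken as log2 of the processed intensity minus its 75th percentile over gene spots, with outlier spots left out and the spots of a probe averaged. Probes entered when some group had them well above background in each of its 3 mice, and the brightest kept probe stood for a gene. Names came from the RefSeq table through the accession on the array, which gave 24375 of 41174 gene probes a symbol. The 23614 genes, probes without a symbol included, were fitted with limma 3.58.1 (R 4.3.3; lmFit, eBayes with trend) over 4 groups of 3 mice, with 8 residual degrees of freedom. P values are two-sided and Benjamini-Hochberg adjusted at 0.05. The number of arrays limits the precision. The p values measure the spread of arrays within groups, where mouse and slide are mixed in all groups but the untreated WT-marrow mice. No pair of arrays held identical values.

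The 39 genes and the other lists were chosen with earlier results of these data known. All 39 genes are accounted for. In a comparison where fewer than 6 of them passed, the 6 with the largest test statistic are named, and from each other list up to 5 genes past the threshold, or the 2 with the largest test statistic where none passed. Treated mice of the same number in the KO-marrow and WT-marrow groups deviated together (correlations 0.418, 0.308 and 0.514), numbers that also follow the slide. Alternatives were quantile normalization, normexp on median signals, other probe filters, blocks for slide and replicate number, array weights, and leaving out each mouse. Promoter windows are RefSeq's, and matches were counted with Python 3.11.15.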

Additional observations from a re-analysis of the deposited data

How the results depend on the processing

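No gene past the threshold changed direction under any alternative run. Slide limits these results most. Against 2, 2 and 11 genes past the threshold in recipients of KO marrow, of WT marrow and in both together, the counts were 1, 0 and 0 with slide as a block, 2, 0 and 2 with slide as a random block (correlation 0.504), and 5, 1 and 6 with normexp on median signals, which moved the median of all genes to 0.312 and shared 2, 1 and 5 genes with the reported calls. With replicate number as a block they were 1, 0 and 10, and the block left 0 genes past the threshold between treated KO-marrow and WT-marrow mice. With array weights, whose estimate stopped before it converged, they were 13 (2 of them shared), 0 and 3, and 3 genes passed between the untreated groups. Within slide 2 alone, with 1 residual degree of freedom, 12 genes passed in recipients of KO marrow and 3 between the treated groups. Without 1 mouse at a time the counts lay between 0 and 3 in recipients of KO marrow, 0 and 3 in recipients of WT marrow and 6 and 12 in both together, and stayed at 0 in the other comparisons. Fewer mice are part of each such fit; otherwise the cause was not tested. Quantile normalization, no filter on dim probes, probes above background on all arrays, the mean of a gene's probes and outlier spots kept gave 9 to 11 genes past the threshold over both marrows, 8 to 11 of them shared. With the mean of probes Ifih1 was called lower, and with outlier spots kept Eif2ak2 was called. Ifit3 kept its call in 1 of 10 of the alternatives that used all mice, Igtp in 3 and Zbp1 and Oas2 in 9. With 3 mice a group, a difference that misses the threshold is not shown to be absent.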

Other observations

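The markers of plasmacytoid dendritic cells, which make much of the type I interferon in an infection, went both ways in treated against untreated mice. Of 7 tested, 2 rose and 2 fell, where 7.52% of all genes passed as higher and 13.4% as lower. With slide as a block 2 rose and 0 fell, where 4.1% of all genes passed as higher and 2.1% as lower. Of the markers of B and plasma cells 3 of 9 rose, and of those of endothelium 0 of 6 rose and 1 fell. With the block 1 marker of B and plasma cells rose, and 0 of endothelium rose or fell. In recipients of KO marrow 7 of the 46 further interferon-induced genes rose, beside 1.85% of all genes. In recipients of WT marrow 5 of them rose, beside 3.57% of all genes. With slide as a block these counts were 7 and 0, beside 4.66% and 0.47% of all genes. The further interferon-induced genes, centred on their means, had a median of -0.04, 0.97 and 0.21 in treated KO-marrow mice and 0.39, 0.15 and 0.35 in treated WT-marrow mice, against -0.33, -0.25 and -0.80 in untreated KO-marrow mice and 0.31, -0.22 and -0.47 in untreated WT-marrow mice. Treated KO-marrow mouse 2 and untreated WT-marrow mouse 1 were again the highest of their groups.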
